A study of Homo sapiens with 24 samples.

Results

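The 6 nuclear receptor genes that carry the retinoic acid signal, RARA, RARB, RARG, RXRA, RXRB and RXRG, were followed through 24 RNA sequencing libraries of human cardiac differentiation cultures. They were taken by gene symbol from the 62757 genes of the count table, and all 6 were found and passed the filter on low counts. Retinoic acid is made from vitamin A inside cells and binds the retinoic acid receptors (RARs), which sit on DNA as heterodimers with a retinoid X receptor (RXR). Without ligand the pair recruits corepressors, and with ligand it recruits coactivators and turns on target genes such as the HOX genes, CYP26A1 and RARB itself. In the developing heart retinoic acid favours atrial over ventricular identity, and RXRs also pair with other receptors, among them the PPARs and thyroid hormone receptors.

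The cultures came from HES3, an established human embryonic stem cell line that here carried a GFP reporter at NKX2-5 and an mCherry reporter at NR2F2 in every group. Cells were labelled as CRISPR-Cas9 knockouts of LHX2, ZNF503 or ZNF711, or as targeted at TRAC, a T cell receptor gene that served as control, and they were differentiated as embryoid bodies with a Wnt-modulating protocol for at most 14 days. Each of the 4 targets was grown under 2 protocols, labelled AM and VM and read here as atrial and ventricular, with retinoic acid added at day 4 in AM only, which gave 8 groups of 3 libraries. The labels do not say how many clones a knockout stands for, nor whether replicates were separate cultures, so p-values measure the spread between these samples, which may be technical. The AM and VM cultures differed in retinoic acid treatment throughout, so exposure and the chamber identity it is used to give cannot be told apart.

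Depth ran from 2899786 to 7438010 counts per library (median 5113566), and a receptor gene had between 25 and 1190 counts in a library. Levels are CPM, the counts of a gene relative to its library's total, with library sizes scaled by the trimmed mean of M values. Differences are log2 fold changes with their SE from edgeR's quasi-likelihood test, and a gene was called when its Benjamini-Hochberg adjusted p over 17724 tested genes was under 0.05. The labelled cell type, cardiomyocyte, was checked on 10 defining genes, whose summed level was 15200 to 30200 CPM in AM and 11800 to 42300 CPM in VM, with no listed gene at 0 throughout. Liver and visceral endoderm genes (10 listed) were also present, at 253 to 2570 CPM in AM and 1760 to 29600 CPM in VM. The targeted transcripts did not all fall under their labels. In AM, ZNF503 was at 255 to 367 CPM in the libraries labelled ZNF503 and at 103 to 123 CPM in TRAC. In VM it was at 19.1 to 45.3 CPM against 8.82 to 16.2 CPM in TRAC, so it was higher under its label in both protocols. ZNF711 was at 31.2 to 55.8 CPM in the AM libraries labelled ZNF711 and at 47.4 to 60.3 CPM in AM TRAC, which overlapped. In VM it was lower under its label, at 25.9 to 33.9 CPM against 34.6 to 48.0 CPM in TRAC. LHX2 and TRAC had at most 34 and 19 counts in a library.

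One sequence is shown because RARB is both a receptor and a target of the receptors, and because 1 of its promoters holds their best known kind of binding element. RAR and RXR bind pairs of 6-base core motifs set in a direct repeat, and a spacing of 5 bases of any kind (DR5) is the form classically bound by RAR with RXR. The 4 core motifs searched were AGGTCA, which is the consensus, then AGTTCA and as further variants GGTTCA and also GGGTCA. All RefSeq promoter windows of GRCh38.p14 were searched on both strands, each window reaching from 250 bases before to 50 bases after a transcript start. DR5 was found in 31 of 35116 windows (0.0883%), and in 1 of the 13 windows of the 6 receptor genes. That window belongs to a RARB start at chr3:25428263 on the plus strand, and the match, in capitals, lies at chr3:25428210-25428226, beginning at -53 from the start. The only other match among 103 windows of 54 retinoid pathway genes was in CYP26A1, a retinoic acid degrading enzyme, at chr10:93073803-93073819, where the repeat reads on the reverse strand and begins at -90 from the start. The 250 bases before the RARB start and the 30 bases around each match read as follows.

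RARB, chr3:25428013-25428262: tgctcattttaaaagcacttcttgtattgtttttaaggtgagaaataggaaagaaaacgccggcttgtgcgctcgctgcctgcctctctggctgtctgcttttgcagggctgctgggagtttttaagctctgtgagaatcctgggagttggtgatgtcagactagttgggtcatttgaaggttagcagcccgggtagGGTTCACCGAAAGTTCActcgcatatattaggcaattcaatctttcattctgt
RARB, match: cgggtagGGTTCACCGAAAGTTCActcgca
CYP26A1, match: ttaaagaTGAACTTTGGGTGAACTaattgt

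Spacings of 1 base (DR1, 0.131% of windows) and 2 bases (DR2, 0.0399%) were found in none of the receptor windows. A match describes letters only, and binding was not measured here.

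Averaged over targets, and in each target but ZNF711, RXRG was the receptor with the largest fitted difference between the protocols. RXRG (ENSG00000143171.13, chr1:165400917-165445355, minus strand, GRCh38 with GENCODE 29) encodes the RXR of most restricted expression, known from striated muscle, brain and pituitary. With the TRAC control it was at 10.8, 10.1 and 14.6 CPM in AM replicates 1, 2 and 3, and at 30.6, 45.4 and 33.1 CPM in VM. Every AM library lay below every VM library, which held for 11.7% of all tested genes in that direction, and RXRG fell in AM by 1.62 on the log2 scale (SE 0.25, adjusted p = 8.3e-05), or 3.06-fold.

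The libraries labelled LHX2 gave the widest RXRG gap. They held 8.03, 9.82 and 10.8 CPM in AM against 44.7, 50.4 and 39.2 CPM in VM, again without overlap (11.4% of tested genes lay that way), with a fall of 2.21 on the log2 scale (SE 0.26, adjusted p = 2.61e-06), or 4.63-fold. The libraries labelled ZNF503 held 12, 14.8 and 25.6 CPM in AM against 34.7, 56.2 and 46 CPM in VM, where AM replicate 3 stood above the other two and still below all of VM (10.8% of tested genes lay that way). The fall there was 1.39 on the log2 scale (SE 0.25, adjusted p = 0.000414), or 2.61-fold. RXRG was the only receptor called in each of these 3 protocol comparisons, in which 11.3% (TRAC), 8.56% (LHX2) and 8.86% (ZNF503) of all tested genes were called.

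The smallest RXRG gap was in the libraries labelled ZNF711, with 13.7, 16.3 and 18.5 CPM in AM and 22.8, 27.8 and 24 CPM in VM. The groups did not overlap (16.4% of tested genes lay that way), but the difference of -0.63 (SE 0.25, adjusted p = 0.102) did not pass the test. It passed with the replicate number as a block (adjusted p = 0.0321, where 23.4% of all tested genes were called). Averaged over the 4 targets, RXRG was at 8.03 to 25.6 CPM in the 12 AM libraries (mean 13.8 ± 4.79, SD) and at 22.8 to 56.2 CPM in the 12 VM libraries (mean 37.9 ± 10.7, SD), a fall of 1.46 on the log2 scale (SE 0.13, adjusted p = 1.31e-09). The 2 ranges met only where AM ZNF503 replicate 3 stood above VM ZNF711 replicates 1 and 3.

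**Figure D1:**
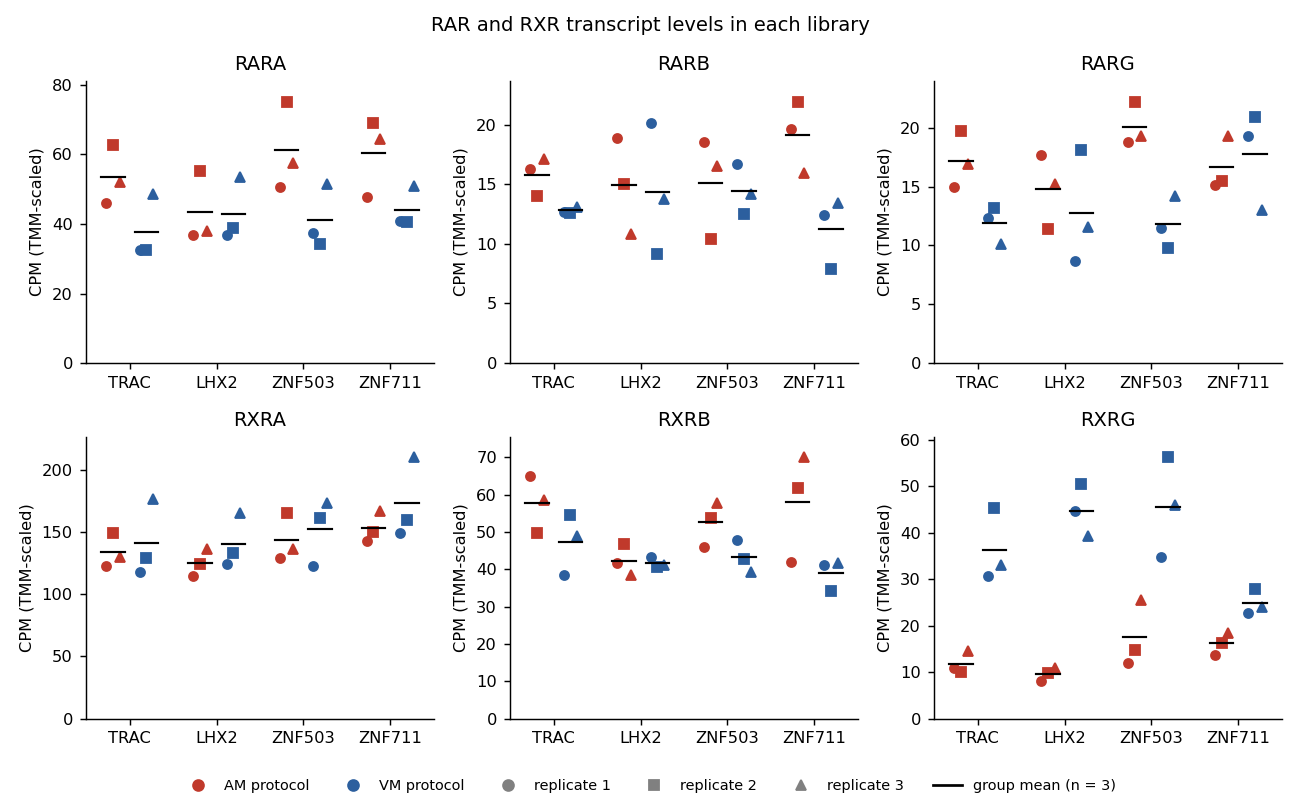
Level of each receptor gene in every library, in CPM on a linear axis from 0, by target (horizontal axis) and protocol (AM red, VM blue); marker shapes give the replicate number and black lines the mean of 3 libraries. RXRG in AM lies at 8.03 to 25.6 CPM and below VM within every target, whereas RXRA overlaps between the protocols in every target.

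Whether the RXRG gap differed between targets was tested as an interaction with TRAC. For ZNF711 the gap was smaller by 0.99 on the log2 scale (SE 0.35, 95% interval 0.24 to 1.74), with an unadjusted p of 0.00981 and an adjusted p of 0.607 by edgeR, and of 0.204 with the replicate block. Its 2 parts went opposite ways: against same-numbered TRAC libraries, RXRG was higher in 3 of 3 AM pairs and lower in 3 of 3 VM pairs. For LHX2 the signs were the other way, lower in 3 of 3 AM pairs and higher in 3 of 3 VM pairs, with an interaction of -0.60 (95% interval -1.36 to 0.16, adjusted p = 1.0). For ZNF503, RXRG was higher in 3 of 3 pairs in both protocols, with an interaction of 0.23 (95% interval -0.51 to 0.96). The same TRAC libraries served every target, and what a replicate number stands for is not labelled. None of these interactions passed the test. Over all 18 interaction values of the 6 receptors, from -0.63 to 0.99, none was called by edgeR or DESeq2. By edgeR, 1 had an unadjusted p under 0.05. Of all tested genes, 0% were called in the LHX2 and ZNF503 interactions and 0.00564% in that of ZNF711.

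RXRG levels went with ventricular marker levels. The summed level of 6 ventricular genes did not overlap between protocols, at 165 to 601 CPM in AM and 831 to 1940 CPM in VM, and all 6 were called lower in AM. Over the 24 libraries, which share protocol, replicate number and depth, log2 RXRG followed the mean log2 level of those 6 genes with a Pearson r of 0.92, and of 0.55 within AM and 0.85 within VM (12 libraries each). For cardiomyocyte markers r was 0.78 over all, 0.41 within AM and 0.78 within VM. Other lists went with RXRG as well: atrial markers at -0.82 over all, 0.66 within AM and -0.62 within VM, and pluripotency markers at 0.82, -0.02 and -0.06. The summed level of the 8 atrial genes overlapped between protocols, at 997 to 1980 CPM in AM and 970 to 1790 CPM in VM. Their mean log2 level did not overlap, at 5.4 or more in AM and 4.85 or less in VM. Within AM the foregut endoderm (0.59) and liver and visceral endoderm (0.57) lists had an r like that of the ventricular list. VM ZNF711, the VM group with least RXRG, also had a low ventricular sum (831 to 1130 CPM, against 1020 to 1940 CPM in the other VM libraries) and cardiomyocyte sum (11800 to 17700 CPM, against 15600 to 42300 CPM). In bulk RNA, fewer cells of a type and less RNA per cell cannot be told apart.

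Cardiomyocyte and RXRG levels did not always differ alike. In the libraries labelled ZNF711 the cardiomyocyte sum was higher in AM (21000 to 30200 CPM) than in VM (11800 to 17700 CPM), while RXRG was lower in every AM library. The ventricular sum there went the same way as RXRG, at 447 to 601 CPM in AM and 831 to 1130 CPM in VM. In VM replicate 3 of the other 3 targets the cardiomyocyte sum was 15600 to 21000 CPM against 37100 to 42300 CPM in replicates 1 and 2. RXRG was also lower there on average but overlapped, at 33.1 to 46 CPM (mean 39.4) against 30.6 to 56.2 CPM (mean 43.7). So was the ventricular sum, at 1020 to 1400 CPM (mean 1270) against 1210 to 1940 CPM (mean 1500). The part of cell makeup in the RXRG difference was not tested beyond these values.

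**Figure D2:**
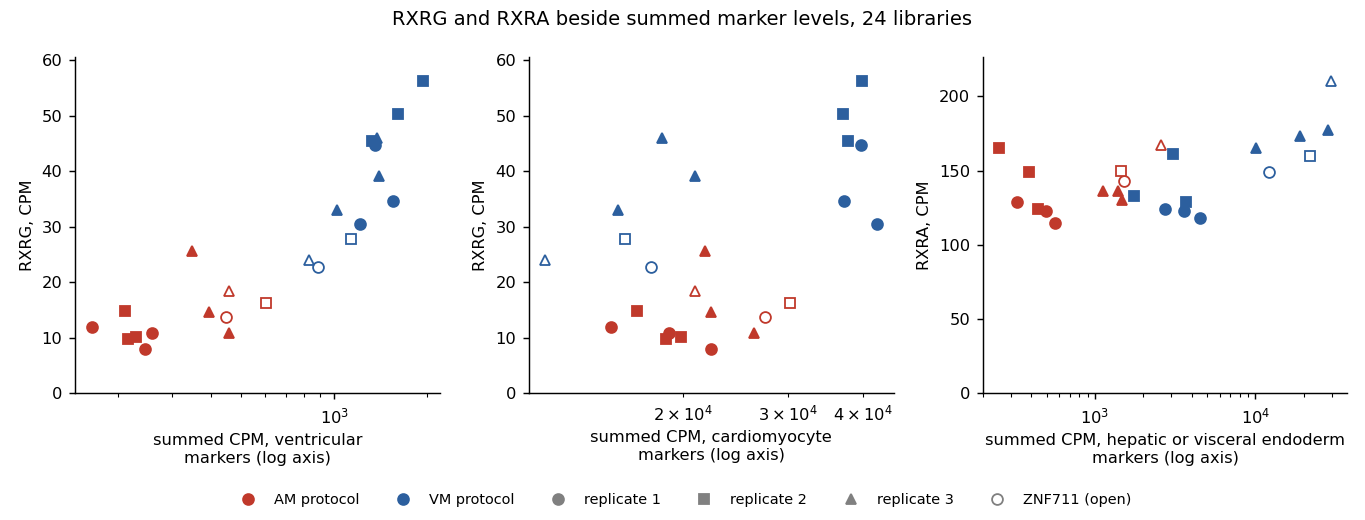
RXRG against the summed CPM of ventricular markers (left) and cardiomyocyte markers (middle), and RXRA against that of liver and visceral endoderm markers (right), 1 point per library, with horizontal log axes and linear vertical axes from 0; AM is red, VM blue, shapes give the replicate number and open points ZNF711. The AM and VM clouds separate on the ventricular axis (165 to 601 against 831 to 1940 CPM) and mix on the cardiomyocyte axis, and the 4 VM replicate 3 libraries lie at the upper right of the RXRA panel.

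RXRA (ENSG00000186350.12, chr9:134317098-134440585, plus strand) encodes the broadly expressed RXR that is the main heterodimer partner in the embryonic heart. It was at 123, 149 and 130 CPM in AM TRAC and at 118, 129 and 177 CPM in VM TRAC, and the protocols overlapped in all 4 targets. The libraries labelled LHX2 held 115, 124 and 136 CPM in AM and 124, 133 and 165 CPM in VM, and those labelled ZNF503 129, 165 and 136 CPM in AM and 123, 161 and 173 CPM in VM. The libraries labelled ZNF711 had the highest mean in each protocol, with 143, 150 and 167 CPM in AM and 149, 160 and 210 CPM in VM. Its 4 protocol differences ran from -0.18 to -0.08, and the average over targets was -0.13 (95% interval -0.31 to 0.05, adjusted p = 0.267). An average difference larger than 0.31 on the log2 scale in either direction was thus outside the interval.

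RXRA did differ between replicate numbers within VM. Replicate 3 was at 165 CPM in VM LHX2, 173 CPM in VM ZNF503, 177 CPM in VM TRAC and 210 CPM in VM ZNF711, above all 8 other VM libraries (118 to 161 CPM). RARA had the same order, at 48.7 to 53.4 CPM in the 4 replicate 3 libraries and 32.4 to 40.8 CPM in the other 8. Of all tested genes, 2.77% lay above in this way and 1.6% below. VM replicate 3 also held more liver and visceral endoderm transcripts (10100 to 29600 CPM, against 1760 to 21800 CPM) and fewer cardiomyocyte transcripts (11800 to 21000 CPM, against 16000 to 42300 CPM). Foregut endoderm (581 to 889 against 295 to 682 CPM), epicardial (526 to 665 against 280 to 555 CPM) and fibroblast sums (3440 to 5130 against 1790 to 4210 CPM) reached higher there as well, and within VM both genes had an r of 0.82 with the foregut endoderm list. The part of these in the RARA and RXRA levels was not tested. Without replicate 3 of every group the RXRA average was 0.00071.

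RXRB (ENSG00000204231.11, chr6:33193588-33200688, minus strand) encodes the third RXR, which is expressed in most tissues. In TRAC it was at 65.1, 49.8 and 58.7 CPM in AM and 38.4, 54.7 and 48.9 CPM in VM, which overlapped (0.29, SE 0.17, adjusted p = 0.339). In the libraries labelled ZNF711 it was at 42.1, 61.8 and 70.0 CPM in AM and 41.1, 34.2 and 41.6 CPM in VM, with AM replicate 1 only just above the highest VM library. RXRB there rose in AM by 0.57 on the log2 scale (SE 0.18, adjusted p = 0.0322) and was the 1 receptor called of 6, beside 13.2% of all tested genes; 16.5% of tested genes had all AM libraries above all VM. The call was lost without AM replicate 2 (adjusted p = 0.11), AM replicate 3 (0.182), VM replicate 2 (0.131) or VM replicate 3 (0.0626), and the difference stayed between 0.42 and 0.76 when 1 library was left out.

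In the libraries labelled LHX2, RXRB was at 41.7, 46.8 and 38.6 CPM in AM and 43.2, 40.6 and 41.2 CPM in VM (0.02, 95% interval -0.36 to 0.40). Those labelled ZNF503 held 46.1, 53.8 and 57.9 CPM in AM and 47.9, 42.9 and 39.3 CPM in VM (0.28, SE 0.18, adjusted p = 0.421). The average RXRB difference was 0.29 (SE 0.09, adjusted p = 0.0117), from 38.6 to 70.0 CPM in AM (mean 52.7 ± 10.1, SD, n = 12) and 34.2 to 54.7 CPM in VM (mean 42.8 ± 5.4, SD, n = 12). Without replicate 3 of every group it was 0.25 and no longer passed (adjusted p = 0.138). RXRB shares 244 exon bases with SLC39A7, a zinc transporter gene on the opposite strand with 19206 counts over all libraries against 5734 for RXRB. Whether counting used strand is not given in the sources used here, so reads over those bases cannot be assigned. SLC39A7 itself moved the other way (-0.36, SE 0.10, adjusted p = 0.00906, average over targets).

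RARA (ENSG00000131759.18, chr17:40309192-40357643, plus strand) encodes the most widely expressed RAR. In TRAC it was at 45.9, 62.6 and 52.1 CPM in AM and 32.4, 32.4 and 48.7 CPM in VM, where VM replicate 3 overlapped with AM. The difference of 0.50 (SE 0.22, adjusted p = 0.157) passed only with the replicate block (adjusted p = 0.0372, with 19.4% of all tested genes called) or without VM TRAC replicate 3 (0.73, adjusted p = 0.0482). The libraries labelled ZNF503 showed a like pattern, with 50.7, 75.1 and 57.6 CPM in AM and 37.5, 34.3 and 51.4 CPM in VM (0.57, SE 0.22, adjusted p = 0.115, and 0.0203 with the block, with 14.9% of all tested genes called).

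In the libraries labelled ZNF711, RARA was at 47.9, 68.9 and 64.5 CPM in AM and at 40.8, 40.6 and 51.0 CPM in VM (0.45, SE 0.22, adjusted p = 0.184). In those labelled LHX2 the levels were 36.9, 55.1 and 38.0 CPM in AM and 36.7, 38.9 and 53.4 CPM in VM, a difference of 0.01 (95% interval -0.46 to 0.48). AM replicate 2 was the highest AM library in all 4 targets. Averaged over targets RARA rose in AM by 0.38 (SE 0.11, adjusted p = 0.00789), from a mean of 41.5 ± 7.66 CPM in VM to 54.6 ± 11.8 CPM in AM (SD, n = 12 each). Summed fibroblast markers were at 4290 to 7440 CPM in AM and 1790 to 5130 CPM in VM. Over the 24 libraries RARA had an r of 0.72 with epicardial and 0.71 with fibroblast, smooth muscle and atrial markers alike. With foregut endoderm markers r was 0.68, and with cardiomyocyte markers -0.61. Within AM and within VM, r was 0.32 and 0.75 for fibroblast and 0.48 and 0.66 for epicardial markers. For smooth muscle it was 0.53 and 0.58, for atrial 0.51 and 0.68, and for foregut endoderm 0.07 and 0.82. The part of these in the RARA level was not tested. The average was 0.59 without replicate 3 of every group. RARA shares 556 exon bases with RARA-AS1 on the opposite strand, which had 134 counts over all libraries against 5800 for RARA.

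RARG (ENSG00000172819.17, chr12:53210567-53232980, minus strand) encodes an RAR known from skin, cartilage and early embryonic cells. It was at 15.0, 19.7 and 16.9 CPM in AM TRAC and 12.3, 13.2 and 10.1 CPM in VM TRAC, with every AM library above every VM library (14.3% of tested genes lay that way), yet the difference of 0.54 (SE 0.26, adjusted p = 0.208) did not pass. The libraries labelled ZNF503 held 18.8, 22.2 and 19.3 CPM in AM and 11.5, 9.80 and 14.2 CPM in VM, likewise without overlap (12.7% of tested genes), with a difference of 0.76 (SE 0.26, adjusted p = 0.0728, and 0.041 with the replicate block, where 14.9% of all tested genes were called). Those labelled ZNF711 did not share this order, with 15.1, 15.5 and 19.3 CPM in AM and 19.3, 20.9 and 13.0 CPM in VM (-0.09, 95% interval -0.64 to 0.46).

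The LHX2 libraries had 17.7, 11.4 and 15.2 CPM of RARG in AM and 8.65, 18.1 and 11.6 CPM in VM, which overlapped widely. Averaged over targets RARG rose in AM by 0.35 (SE 0.13, adjusted p = 0.0379), from 13.5 ± 3.90 to 17.2 ± 2.89 CPM (SD, n = 12 each). That call is close to the threshold: the adjusted p was 0.0505 by DESeq2, 0.108 without the filter on low counts, and 0.259 without replicate 3 of every group. Leaving out 1 library at a time ended the call for 10 of the 24 libraries, with adjusted p-values up to 0.0748: AM LHX2 1 and 3, VM LHX2 1 and 3, AM ZNF503 2, VM ZNF503 2, AM TRAC 2, VM TRAC 3, AM ZNF711 3 and VM ZNF711 3.

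RARB (ENSG00000077092.20, chr3:25174332-25597932, plus strand) is the receptor with the DR5 match printed above, which lies at 1 of its starts. The windows of its other starts held no DR5. RARB was counted as a whole gene, over the transcripts of all its starts. In TRAC it was at 16.3, 14.0 and 17.1 CPM in AM and at 12.7, 12.6 and 13.1 CPM in VM, every AM library being above VM (as for 14.3% of tested genes), with a difference of 0.30 (SE 0.28, adjusted p = 0.582). The libraries labelled ZNF711 had 19.6, 21.9 and 15.9 CPM in AM and 12.4, 7.90 and 13.4 CPM in VM, also without overlap (as for 16.5% of tested genes). The difference was 0.78 (SE 0.29, adjusted p = 0.0743, and 0.0206 with the replicate block, where 23.4% of all tested genes were called). The values overlapped for LHX2 (18.9, 15.0 and 10.8 CPM in AM, 20.1, 9.14 and 13.8 CPM in VM) and for ZNF503 (18.5, 10.4 and 16.5 CPM in AM, 16.7, 12.5 and 14.2 CPM in VM).

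On average RARB was at 16.3 ± 3.39 CPM in AM and 13.2 ± 3.13 CPM in VM (SD, n = 12 each), a difference of 0.30 (SE 0.14, adjusted p = 0.113) that did not pass the test. It passed with a replicate block fitted within each protocol (adjusted p = 0.0405, with 45% of all tested genes called) and without VM LHX2 replicate 1 (0.39, adjusted p = 0.0339). That block takes the spread between replicate numbers within a protocol out of the error. The p-value it gives is therefore too small if a number marks a culture run within a protocol. At 42 to 112 counts per library, RARB was among the least deeply counted of the 6. It shares 28 exon bases with TOP2B on the opposite strand, a topoisomerase gene with 28913 counts over all libraries against 1756 for RARB. TOP2B rose in AM too (0.23, SE 0.08, adjusted p = 0.0249, average over targets), and reads over the shared bases cannot be assigned.

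**Figure D3:**
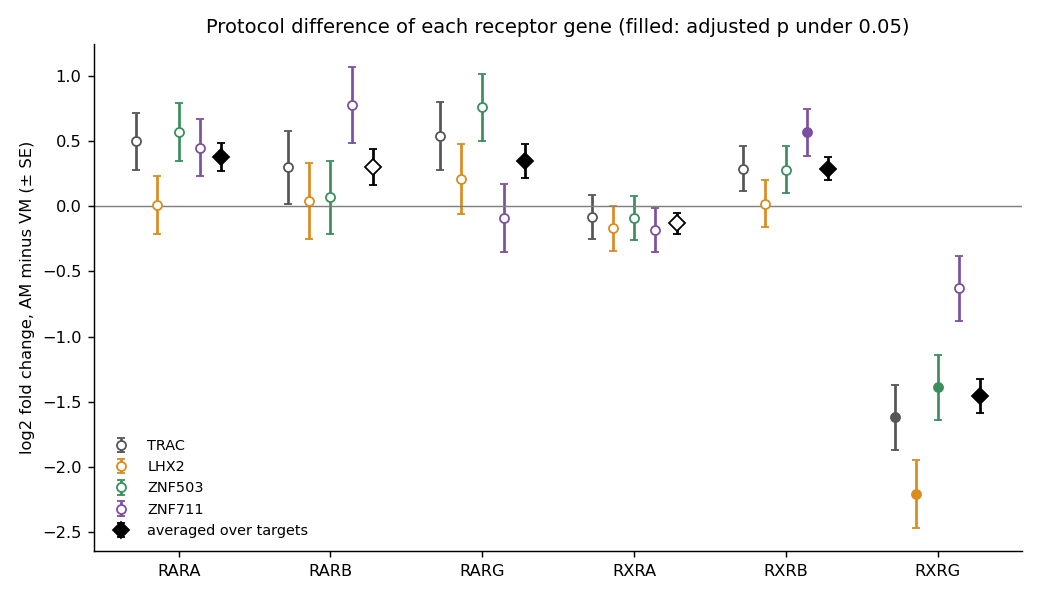
Log2 fold change of each receptor gene, AM minus VM, with its SE from the edgeR fit, for each target and averaged over the targets; filled symbols have an adjusted p under 0.05 and the grey line marks no difference. RXRG lies between -2.21 and -0.63 in the 4 targets, RXRA between -0.18 and -0.08, and the averages of RARA, RARG and RXRB (0.38, 0.35 and 0.29) are filled above 0.

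Averaged over targets, 4 of the 6 receptors were thus called, RARA, RARG and RXRB higher and RXRG lower in AM, beside 34.5% of all tested genes (16.8% higher and 17.6% lower). No receptor had all 12 AM libraries on one side of all 12 VM libraries, which 2.69% of tested genes had above and 1.56% below. The average treats 12 against 12 libraries as independent, although same-numbered libraries deviated together. Its p-values are too small if a number marks a culture run within a protocol. If a number marks a run shared by AM and VM, the run's effect cancels in AM minus VM, and the p-values are then too large. Within the 4 targets, 11 of the 24 receptor values had an unadjusted p under 0.05, beside 4222 (TRAC), 3624 (LHX2), 3513 (ZNF503) and 4804 (ZNF711) of the 17724 tested genes. In 9 of the 24 the groups did not overlap, counting both directions. Of tested genes, 14.3% lay above and 11.7% below for TRAC, and 12.5% above and 11.4% below for LHX2. For ZNF503 these were 12.7% and 10.8%, and for ZNF711 16.5% and 16.4%. The shares above and below add up when set beside the 9.

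Levels were compared between the genes per kilobase of the union of their annotated exons. In VM the mean order was RXRG (14.1 CPM per kb), RXRA (13.7), RXRB (10.9), RARA (8.77), RARB (3.57) and RARG (2.64). In AM it was RXRB (13.4 CPM per kb), RXRA (12.5), RARA (11.5), RXRG (5.11), RARB (4.4) and RARG (3.35). RXRG thus stood first in VM and below RXRB, RXRA and RARA in AM, and neighbours in either order had overlapping ranges over the 12 libraries, except RARA (6.85 to 11.3) and RARB (2.14 to 5.44) in VM. RARB and RARG stayed at the low end in both. The order depends on the length used: per kilobase of the longest coding transcript, a choice made after seeing the data, RXRA ranked first in every library, with 82.2 CPM per kb in VM against 16.8 for RXRG.

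As a share of the summed RXR level per kb, RXRG made up 16.1% ± 3.67 in AM and 35.9% ± 7.21 in VM (SD, n = 12 each), with a range of 12.4% to 26.0% in AM and 23.2% to 45.6% in VM. RXRB made up 43.2% in AM and 28.4% in VM, and RXRA 40.7% and 35.7%. The summed RXR level was 31.1 ± 4.72 CPM per kb in AM and 38.7 ± 4.47 in VM, and the summed RAR level 19.3 ± 2.8 and 15.0 ± 1.73 (SD, n = 12 each). Within the RARs, RARA held 59.4% in AM and 58.2% in VM. The shares depend on the length too: with the longest coding transcript of each gene, RXRG made up 6.07% in AM and 14.9% in VM and RXRA 75.7% and 71.9%. The union of RXRA exons is 11083 bases and its longest coding transcript 1846 bases.

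**Figure D4:**
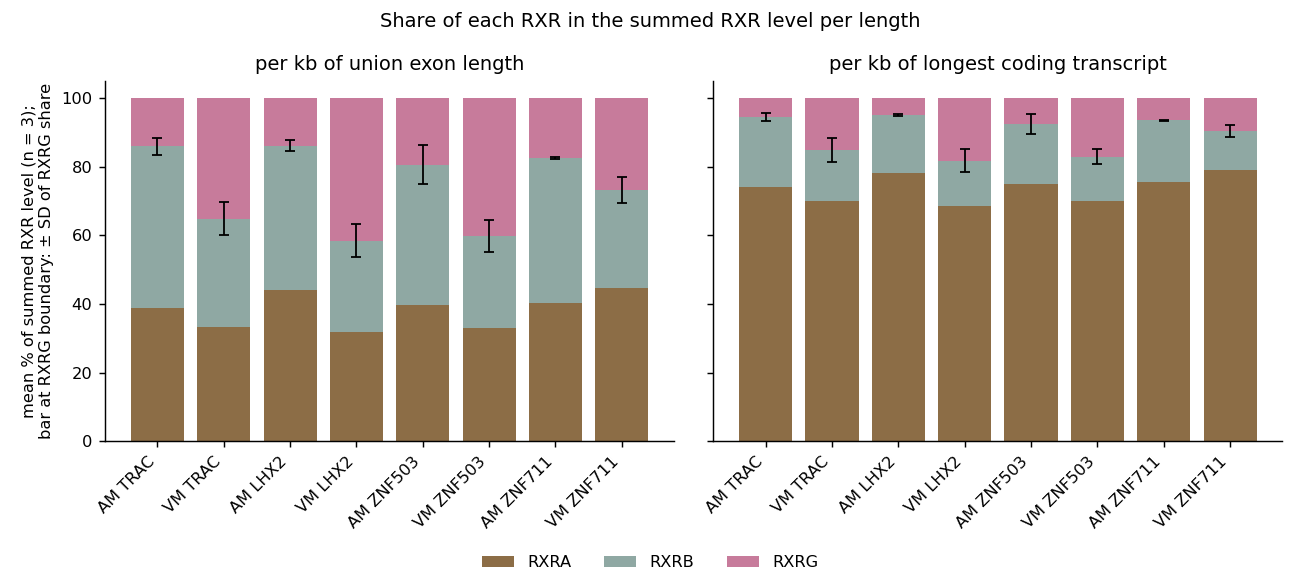
Mean share of RXRA, RXRB and RXRG in the summed RXR level per kilobase, in percent, for each group of 3 libraries, with length taken as the union of exons (left) or the longest coding transcript (right); the black bar is the SD of the RXRG share. RXRG takes a larger share in VM than in AM for every target with both lengths, while the RXRA share is much larger on the right.

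No receptor was called between a knockout label and TRAC within a protocol, by edgeR or by DESeq2. The 36 differences from TRAC within a protocol ran from -0.54 to 0.58, the lowest adjusted p was 0.483 and 4 had an unadjusted p under 0.05. Of all tested genes, 0% were called in 5 of the 6 targeting comparisons and 0.0169% in ZNF711 against TRAC under VM. RXRB in AM was lower in the libraries labelled LHX2 (41.7, 46.8 and 38.6 CPM) than in TRAC (65.1, 49.8 and 58.7 CPM) without overlap, by -0.45 (unadjusted p = 0.0174, adjusted p = 0.554, edgeR), where 19% of tested genes did not overlap either. RXRG in VM was lower in the libraries labelled ZNF711 than in TRAC without overlap, by -0.54 (unadjusted p = 0.0341, adjusted p = 0.483, edgeR), where 10.1% of tested genes did not overlap. In the other comparisons with TRAC no receptor was free of overlap, beside 8.55% (ZNF503, AM), 11.7% (ZNF711, AM), 5.12% (LHX2, VM) and 4.32% (ZNF503, VM) of tested genes. The other 2 were RXRG in AM for ZNF503 (0.56, adjusted p = 1.0) and RARG in VM for ZNF711 (0.58, adjusted p = 0.498). The first of these was 0.18 without AM ZNF503 replicate 3.

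The genes around the receptors were described on 5 lists of 67 retinoid genes, in the comparison averaged over targets; over all 17724 tested genes 2979 were higher and 3128 lower in AM, with a median of -0.01. Among listed retinoic acid response targets, 13 of 15 tested genes rose, none fell, and the median was 1.26. This list leaves out CYP26A1 and RARB, which are also named above as targets. CYP26A1 fell, as given below, and RARB was not called (0.30, adjusted p = 0.113 by edgeR). HOXA3 and HOXA2, which pattern the body axis, were almost confined to AM: HOXA3 had a median of 14.0 CPM (9.31 to 19.3) in AM and 0 to 5 counts in a VM library. HOXA2 had no count in any of the 12 VM libraries and 1.52 to 6.87 CPM in AM, at least 7.02-fold higher against 3 counts per library. HOXA3 and HOXA2 passed the filter on low counts only through AM, so a rise was the only outcome open to them. Both count toward the totals and the median of this list. NR2F1, an atrial transcription factor gene, rose from a median of 1.58 CPM (0 to 19.2) in VM to 162 CPM (114 to 207) in AM (log2 fold change 5.82, SE 0.37, adjusted p = 8.86e-10).

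Among 6 genes that bind or break down retinoic acid, 3 rose and 2 fell, with a median of 0.76. The 2 that fell were CYP26 hydroxylases: CYP26C1 went from a median of 36.0 CPM (9.69 to 73.0) in VM to 1.02 CPM (0 to 3.9) in AM (log2 fold change -5.11, SE 0.41, adjusted p = 6.93e-09), and CYP26A1 from 2 to 25 counts per library in VM to 0 to 3 in AM (adjusted p = 1.21e-05). CYP26A1, whose promoter match is printed above, was nearly absent from the libraries that had received retinoic acid at day 4. It passed the filter on low counts only through VM, so a fall was the only outcome open to it. The carriers rose: FABP5 went from a median of 5.8 to 17.6 CPM (1.56, SE 0.18, adjusted p = 1.65e-07) and CRABP2 from 127 to 271 CPM (0.98, SE 0.14, adjusted p = 6.81e-06).

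For retinoid synthesis and uptake, 3 of 11 tested genes rose and 4 fell, with a median of -0.12. DHRS9, a retinol dehydrogenase, was at 16.0 to 48.4 CPM in AM and 0.4 to 1.69 CPM in VM (4.86, SE 0.17, adjusted p = 5.17e-17). It passed the filter on low counts only through AM. LRAT, which esterifies retinol for storage, rose too (2.07, SE 0.32, adjusted p = 1.14e-05). RBP4, the secreted retinol carrier made by liver, fell from a median of 190 CPM (43.6 to 904) to 9.78 CPM (0.915 to 69.2) (-4.47, SE 0.72, adjusted p = 0.00012), beside the lower liver and visceral endoderm sum in AM given above, whose part was not tested.

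Coregulators of the receptors differed little in size: 8 of 15 tested genes rose and 1 fell, with a median of 0.18. The coactivator gene NCOA1 rose from a median of 104 CPM (88.1 to 135) to 159 CPM (135 to 173) (0.57, SE 0.07, adjusted p = 4.08e-07). NRIP1, a ligand-dependent corepressor gene, rose by 0.53 (SE 0.08, adjusted p = 4.91e-06), and the coactivator genes CREBBP and MED1 by 0.33 and 0.26. TBL1XR1, of the corepressor complex, fell by 0.18 (SE 0.07, adjusted p = 0.0486).

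Receptors that pair with RXR went both ways, 2 of 10 tested genes higher and 2 lower, with a median of -0.14. PPARG, the receptor of fat cell differentiation, rose by 1.31 (SE 0.27, adjusted p = 0.000436) at low levels of 0.638 to 10.6 CPM, and THRA, a thyroid hormone receptor gene, by 0.25 (SE 0.09, adjusted p = 0.0366). PPARA, a receptor of fatty acid oxidation in heart and liver, fell from a median of 114 CPM (92.9 to 193) to 77.1 CPM (59.7 to 101) (-0.69, SE 0.11, adjusted p = 2.06e-05). NR1I3, a liver receptor gene, had 2 to 52 counts in a VM library and 0 to 5 in AM (adjusted p = 3.39e-05), and passed the filter on low counts only through VM.

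**Figure D5:**
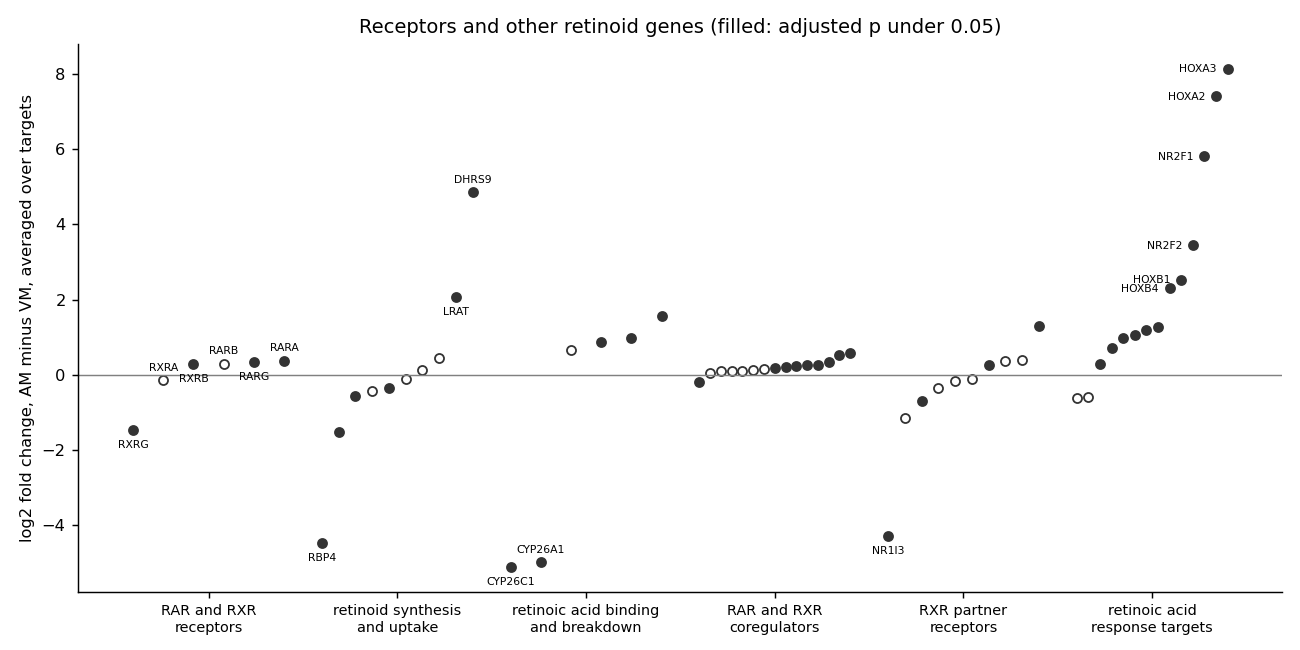
Log2 fold change, AM minus VM averaged over the 4 targets, of the 6 receptors and of the tested genes of 5 retinoid lists that are reported here, each ordered by its value; filled points have an adjusted p under 0.05 and genes beyond 2 in size are named. The receptors lie between -1.46 and 0.38, inside the joint spread of the other lists, which reaches 8.14 for HOXA3 and -5.11 for CYP26C1; fitted values of genes with hardly any counts in a protocol depend on the fit's prior.

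The genes most like each receptor were taken by Pearson r of log2 CPM over the 24 libraries among 11428 genes, as a description of libraries that share protocol and replicate number. RXRG was most like LINGO1 (r = 0.95), IRS1 (0.93) and ANXA6 (0.92), whose means were lower in AM, with LINGO1 at a mean of 26.0 CPM in AM and 82.4 CPM in VM. Within AM and within VM, r was 0.73 and 0.81 for LINGO1, 0.62 and 0.76 for IRS1, and 0.72 and 0.75 for ANXA6. LINGO1 ranked 231 within AM and 168 within VM, so other genes were more like RXRG there. RXRA was most like MPG (0.91), TMED9 (0.91) and PRELID1 (0.90), and MPG had an r of 0.91 within AM and 0.94 within VM. RARA was most like CCAR2 (0.89), TBC1D16 (0.87) and DDAH2 (0.86), and RXRB most like CERK (0.81), GSDMD (0.79) and APBB1 (0.79). Likeness was lowest for RARG, with DENND2A (0.73), DPYSL2 (0.73) and PAK3 (0.71), and for RARB, with ZNF70 (0.69), GATAD2B (0.68) and ZNF701 (0.68). Among the receptors themselves RARA and RXRA ran together within each protocol (r = 0.77 in AM and 0.79 in VM, 12 libraries each) but less over all 24 (0.44).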

How the data were processed

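Per the submitters' processing notes the reads were processed with STAR and GRCh38; counting program, strand setting and annotation release are not given in the sources used here. The authors deposited 1 table of whole-number counts per gene. The labels name polyA RNA in one field and ribosomal depletion in another. Symbols were found for 62686 of 62757 identifiers. Genes were filtered with filterByExpr and tested with edgeR 4.0.16 (R 4.3.3; TMM scaling, robust quasi-likelihood fit, 1 mean per group over 24 libraries, 14 comparisons, Benjamini-Hochberg adjustment over 17724 genes). Intervals are 95%. Scripts were tested on simulated data. The replicate block was fitted because, over 11428 genes, same-numbered libraries departed from their group means together (r = 0.125 to 0.786 in all 10 pairs of groups compared); what a number stands for is not labelled.

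The receptors and gene lists were chosen with earlier results of these data known. Named genes were the receptors, the targeted genes, called pathway genes (up to 4 per list with the largest change in full) and the 3 genes most like each receptor (Pearson r of log2 CPM with a prior count of 2, mean of at least 3). A few genes of the lists count toward the totals but are not reported here by name. Alternatives were scaling by relative log expression or library size, no filter or at least 1 CPM in 3 libraries, a fit of the compared groups alone, DESeq2 1.42.0, the block, and leaving out libraries. Promoters are from RefSeq, GRCh38.p14, and gene positions from GENCODE 29. Intervals and floors cover counting error or the spread of these samples only.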

Additional observations from a re-analysis of the deposited data

How the results depend on the processing

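The number of receptors called was 1 for TRAC and 2 with the replicate block (1 to 2 when leaving out libraries). For ZNF503 it was 1, and 3 with scaling to library size or with the block (1 to 2). For ZNF711 it was 1, 0 without the filter and 3 with the block (0 to 1). For the average it was 4, and 3 to 5 in other settings. RARG was lost there by DESeq2 or without the filter, and RARB was gained with the block within each protocol. Leaving out libraries gave 2 to 4 for the average, and the 2 left without replicate 3 were RARA and RXRG. Small values changed sign: with library size alone RXRA was 9.2e-05 for TRAC and 0.0049 for ZNF503, and without the filter RARA was -1.0e-05 for LHX2. Leaving out libraries, RXRA ranged from -0.19 to 0.15 for TRAC, -0.21 to 0.054 for ZNF503 and -0.16 to 0.00071 on average. Under LHX2, RARA ranged from -0.20 to 0.29, RARB from -0.19 to 0.38 and RXRB from -0.055 to 0.086. RARB for ZNF503 ranged from -0.095 to 0.28, RARG for ZNF711 from -0.41 to 0.054, and the ZNF503 interaction of RXRG from -0.15 to 0.44. The cause of these changes was not tested. The RXRG protocol calls in TRAC, LHX2, ZNF503 and on average held in every setting tried. Over all tested genes the block raised the calls from 2003 to 3430 (TRAC), 1517 to 2781 (LHX2), 1571 to 2642 (ZNF503) and 2345 to 4150 (ZNF711), and the TRAC groups alone gave 995. For LHX2 in AM it gave 201 in place of 0 and for ZNF711 in VM 402 in place of 3. With the length of the longest coding transcript in place of the exon union, RXRG made up 14.9% in place of 35.9% of the RXR level in VM. At 42 to 112 counts of RARB and 44 to 126 of RARG per library, counting error adds to the spread of these low genes.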
